A study of Homo sapiens with 6 samples.

Results

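The regions described here are R-loop peaks that kept exactly the same borders in untreated and N2-heptynyl-dG-treated cells of HEK293T, a cell line from human embryonic kidney. A peak was taken when its chromosome, start, end and strand were equal in the lists of both conditions, so the members were chosen on their measured borders. There were 3296 such peaks among 10231 untreated and 11085 treated peaks, or among 18020 distinct peaks in all. They made up 32.2% of the untreated list (95% Wilson interval 31.3% to 33.1%) and 29.7% of the treated list (28.9% to 30.6%), shares that the rule itself sets. Another 4339 untreated peaks overlapped a treated peak of the same strand with other borders, 22 overlapped a treated peak of the opposite strand only, and 2574 overlapped none.

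Wild-type HEK293T cells were left untreated or were exposed to 10 μM N2-heptynyl-dG, an alkylated deoxynucleoside that is built into DNA, for 3 h. The cells of both conditions then received 5 mM N3-kethoxal for 10 min before spKAS-seq, which sequences labeled DNA with its strand kept. There were 2 samples per condition and 2 inputs of untreated cells, but 1 peak list per condition, placed with replicate 1. Each list holds 4 columns, the chromosome, start, end and strand, with no height, fold enrichment or p-value, so that signal and depth at a peak are unknown and equal borders do not mean equal signal.

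An R-loop is an RNA-DNA hybrid together with the DNA strand that the RNA has displaced. R-loops arise where RNA polymerase is active, often just after a start site or at the end of a gene, and RNase H enzymes, topoisomerases and helicases remove them. N3-kethoxal reacts with guanine that is not base-paired, and therefore labels the displaced strand. Intervals are 95% Wilson intervals that cover counting error only. No test between sets of peaks was made, because each condition has 1 list and peaks are not replicates.

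Members over genes of U1 small nuclear RNA, which recognizes the 5′ splice site by base pairing, are shown first. These genes range from exact copies of each other to sequences that differ widely. A same-strand member overlapped 21 U1 genes or U1-like pseudogenes, and 4 of these genes are shown from GRCh37 in the direction of the gene. The 9-base element ACTTACCTG that pairs with the splice site is in capitals. RNU1-4 lies at chr1:17067011-17067174 on the plus strand, RNVU1-7 at chr1:145969270-145969433 on the minus strand, RNVU1-14 at chr1:148241465-148241628 on the plus strand, and RNVU1-20 at chr1:149605917-149606079 on the plus strand. RNVU1-7 differs from RNU1-4 by 1 edit (a base changed, added or lost) and RNVU1-14 by 15 edits. RNVU1-20 differs by 33 edits and lacks the element.
RNU1-4: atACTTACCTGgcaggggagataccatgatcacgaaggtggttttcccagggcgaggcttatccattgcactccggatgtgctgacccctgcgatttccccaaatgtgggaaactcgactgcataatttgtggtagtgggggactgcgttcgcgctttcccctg
RNVU1-7: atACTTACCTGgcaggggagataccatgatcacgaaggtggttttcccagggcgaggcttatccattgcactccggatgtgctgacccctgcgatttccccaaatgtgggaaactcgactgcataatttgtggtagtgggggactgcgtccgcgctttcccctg
RNVU1-14: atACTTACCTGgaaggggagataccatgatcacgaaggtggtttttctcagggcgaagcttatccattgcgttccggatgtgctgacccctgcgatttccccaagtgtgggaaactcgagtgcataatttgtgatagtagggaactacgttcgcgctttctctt
RNVU1-20: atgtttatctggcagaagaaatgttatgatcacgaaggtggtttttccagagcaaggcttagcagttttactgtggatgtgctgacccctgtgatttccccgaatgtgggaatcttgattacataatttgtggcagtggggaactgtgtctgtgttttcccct

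The other sequences are the 150-base stretch with the most guanine in runs, outside annotated UTRs, from the widest member of 3 feature classes and from the members at 2 regulators of cell growth and identity, CCND1 and GATA6, which were chosen after their values were seen. They are shown because N3-kethoxal reads guanine on the displaced strand, and runs of at least 3 G on the strand of the peak are in capitals. Being picked for G runs, they do not stand for the whole peak. Over the whole peak, the strand shown held fewer G than C at SNHG19 and near HES4, and more at RPS24. The first lies at chr16:2200801-2200950 on the minus strand, within the peak at SNHG19 and SNORD60, and opposite an intron of RAB26. The second, at chr1:930211-930360 on the minus strand, falls between annotated genes near HES4. The third lies in an intron of RPS24 at chr10:79801459-79801608 on the plus strand. The last pair lies in introns of CCND1 at chr11:69456326-69456475 and GATA6 at chr18:19750437-19750586, both on the plus strand.
SNHG19 peak: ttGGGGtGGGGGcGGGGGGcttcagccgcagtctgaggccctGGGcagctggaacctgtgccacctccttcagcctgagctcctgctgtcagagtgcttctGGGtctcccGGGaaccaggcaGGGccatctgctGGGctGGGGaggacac
HES4 region peak: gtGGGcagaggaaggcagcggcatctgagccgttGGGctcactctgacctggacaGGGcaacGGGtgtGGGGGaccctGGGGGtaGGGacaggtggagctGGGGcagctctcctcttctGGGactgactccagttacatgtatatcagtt
RPS24 peak: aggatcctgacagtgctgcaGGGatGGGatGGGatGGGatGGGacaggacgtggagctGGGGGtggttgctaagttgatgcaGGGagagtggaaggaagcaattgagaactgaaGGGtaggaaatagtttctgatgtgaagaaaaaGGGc
CCND1 peak: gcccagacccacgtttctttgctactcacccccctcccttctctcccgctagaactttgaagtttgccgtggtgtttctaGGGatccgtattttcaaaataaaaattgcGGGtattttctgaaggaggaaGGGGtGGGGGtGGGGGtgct
GATA6 peak: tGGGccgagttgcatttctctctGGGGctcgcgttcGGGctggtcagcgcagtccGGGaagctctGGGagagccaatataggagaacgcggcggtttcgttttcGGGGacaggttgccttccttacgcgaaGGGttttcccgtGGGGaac

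The identical peaks were narrow. Their median width was 500 bp and their mean 779 bp, and 1705 of 3296 (51.7%) were 500 bp wide. Peaks shared with moved borders had a median width of 1000 bp in the untreated list, with 22.7% at 500 bp, while peaks of the untreated list alone had a median of 500 bp. All but 2 members have a width that is a multiple of 250 bp, as the borders of the lists lie on a 250-bp grid. Of the untreated peaks of 500 bp, 40.5% were identical (39.1% to 42%), against 21.3% of those of 1000 bp (19.1% to 23.6%) and 20.6% of those of at least 2000 bp (17.7% to 23.9%). These widths describe what the rule selected and support nothing further.

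Among 7443 pairs in which a peak of either list overlapped only its partner on the same strand, both borders were equal in 3296, or 44.3%. In 1728 pairs the 5′ border was equal and the 3′ border had moved, and in 1225 the 3′ border was equal and the 5′ border had moved. Both borders had moved in 1194 pairs. The plot of border shifts shows how the pairs lie around the members. Just outside the rule were 2147 pairs that differed by 250 bp at 1 border. Their untreated peaks had a median width of 750 bp, 52.2% of them lay in promoters and their median GC content was 57.2%, whereas the members had 500 bp, 68.1% and 59.4%. A further 376 pairs of equal width had slid by 250 bp, 217 of them towards the 3′ side.

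**Figure D1:**
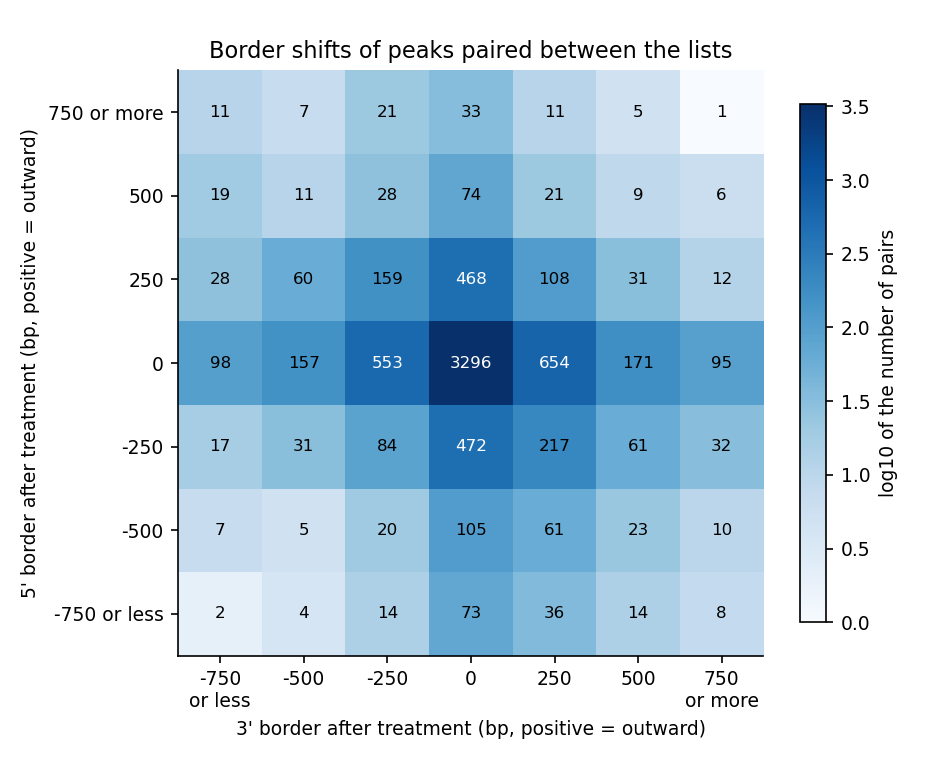
Number of pairs by the shift of the 3′ border (horizontal axis, bp) and of the 5′ border (vertical axis, bp) from the untreated to the treated list, where positive values point outward, the outermost cells collect larger shifts and shading is log10 of the count. The cell at 0 holds the 3296 members, and the largest neighboring cell holds 654 pairs whose 3′ border lay 250 bp further out after treatment.

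Most identical R-loops lay at promoters. A promoter was taken to reach from 1000 bp before an annotated start site to 100 bp after it, and it held the midpoint of 2246 members, or 68.1% (66.5% to 69.7%). Gene bodies held 520 (15.8%), intergenic sequence 280 (8.5%), and terminal regions, from 100 bp before to 1000 bp past a transcript end, 250 (7.58%). In the untreated list as a whole, promoters held 50.1% of the peaks, and among its peaks shared with moved borders they held 40.9% (39.5% to 42.4%). Among peaks of 1 list the promoter share was 42% for untreated and 48.4% for treated cells. Turned around, 43.9% of all untreated promoter peaks were identical (42.5% to 45.2%), compared with 21.6% of gene body peaks, 21.6% of terminal peaks and 18.1% of intergenic peaks (16.3% to 20.1%).

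Narrow peaks are more often promoter peaks in every set, so the promoter share was also taken by width. At 500 bp, 78.8% of identical peaks (76.8% to 80.7%) and 58.9% of untreated peaks with moved borders (55.8% to 62.0%) lay in promoters. At 1000 bp the shares were 54.0% (47.9% to 59.9%) and 40% (36.4% to 43.7%), and at 2000 bp or more 21.6% (15.5% to 29.4%) and 11.3% (8.85% to 14.3%). The identical peaks thus had the higher promoter share in each of these width classes, while the intervals overlapped at 3 widths in between. At 1250 bp the shares were 43.8% (36.8% to 51%) and 33.4% (29.4% to 37.6%), at 1500 bp 30.2% (22.3% to 39.5%) and 22.1% (18.2% to 26.5%), and at 1750 bp 28.6% (19.3% to 40.1%) and 16.8% (12.8% to 21.7%). Of the pairs in promoters 56.5% had both borders equal (55.0% to 58.1%), and of those in terminal regions 29.7% (26.7% to 32.9%).

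**Figure D2:**
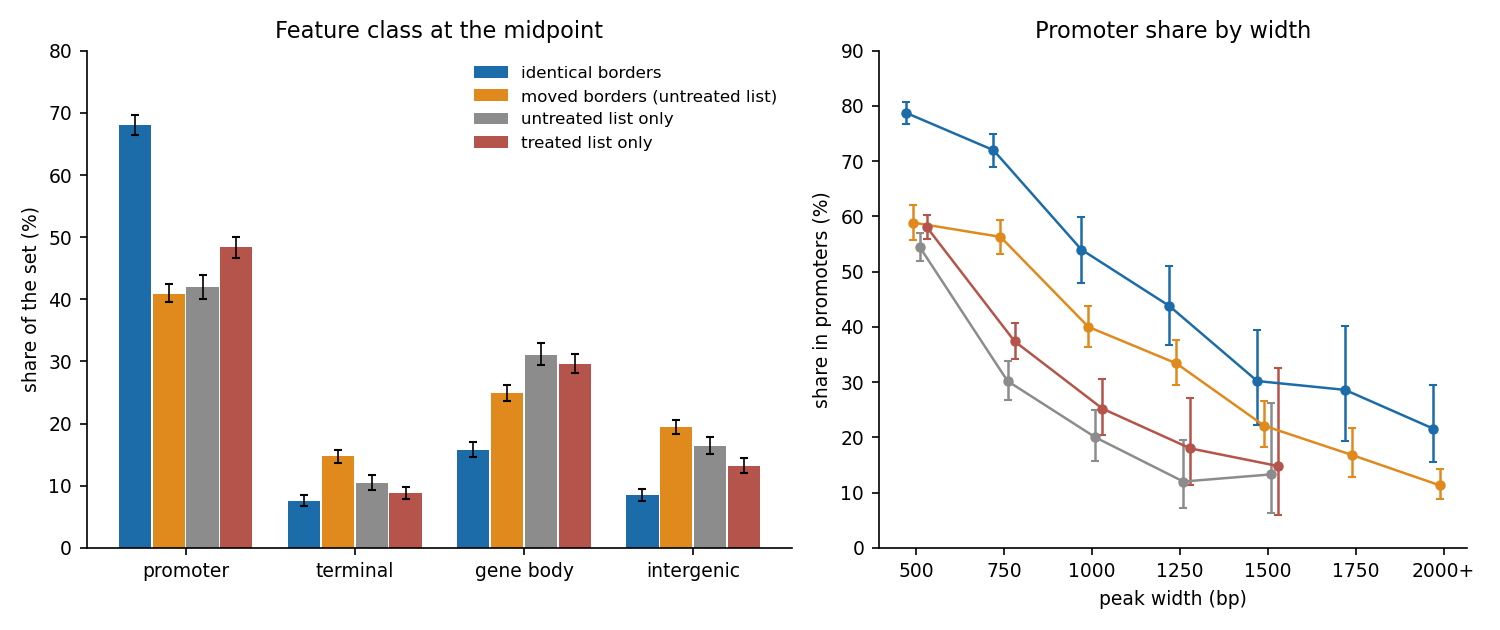
Left, share of each set of peaks (%) by the feature class at the peak midpoint. Right, share of each set in promoters (%) by peak width (bp), for classes with at least 20 peaks. Bars and points are shares with 95% Wilson intervals, and the identical peaks have the highest promoter share of the 4 sets, 68.1%, and the highest promoter share at each width.

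A finer look at the midpoint placed 857 members in a 5′ UTR, or 26.0% (24.5% to 27.5%). This share was 16.8% over all untreated peaks and 12.4% (11.4% to 13.4%) for untreated peaks with moved borders. Introns held 24.6% of the members, beside 30.6% of all untreated peaks, and sequence outside gene records 25.0%, beside 30.8%. Noncoding exons held 12.7% of the members, beside 10.6% of all untreated peaks, and coding exons 9.22%, beside 6.98%. The midpoint of 84 members, or 2.55% (2.06% to 3.14%), lay in a 3′ UTR. This share was 4.23% over all untreated peaks and 5.35% (4.72% to 6.06%) for those with moved borders. Members at transcript ends were wide, with a median of 1000 bp, as were intergenic members, while promoter members had a median of 500 bp.

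The identical R-loops sat close to start sites of protein-coding genes. Of the 3296, 2450 (74.3%) had their midpoint within 2000 bp of a coding start site, compared with 52.3% of untreated peaks with moved borders. The share was 59.6% over all untreated peaks, 53% for untreated-only and 59.7% for treated-only peaks. These shares were not split by width. On the strand of the gene there were 1702, with a median position of 59 bp downstream and a middle 50% of cases from -1 to 140 bp. For untreated peaks with moved borders the median was 70 bp and the same range ran from -43 to 255 bp. Over all untreated peaks the median was 66 bp, with a range from -12 to 191 bp. The other 748 members lay on the opposite strand, with a median of -282 bp and a range from -389 to -136 bp, that is upstream of the start site.

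**Figure D3:**
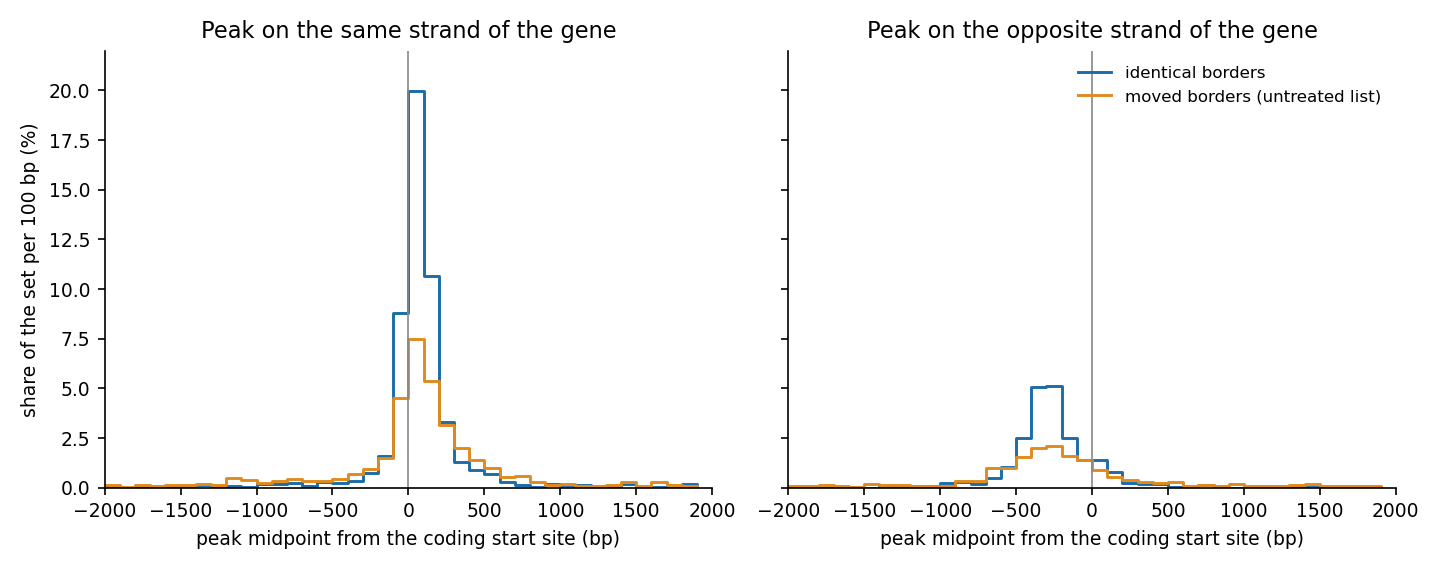
Share of each set (%) per 100 bp of distance between the peak midpoint and the nearest protein-coding start site, for peaks on the strand of the gene (left) and on the opposite strand (right). Identical peaks form a narrow maximum just downstream of the start site on the gene strand and a lower one near -282 bp on the opposite strand.

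Strands of the genome were used alike, with 1630 members on the plus and 1666 on the minus strand. At protein-coding genes, taken with 1000 bp upstream, 1468 members lay on the strand of the gene, 740 on the opposite strand and 471 touched genes of both strands, and 617 touched no coding gene. Where the genes were all on 1 strand, 66.5% of members had the strand of the gene (64.5% to 68.4%), compared with 68.2% of untreated peaks with moved borders (66.4% to 70.0%), a difference within these intervals. Genes on both strands were touched by 14.3% of members (13.1% to 15.5%) and 8.44% of the peaks with moved borders (7.64% to 9.30%).

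Some members lay back to back. A peak of the other strand in the same list touched or overlapped 496 members, or 15.0% (13.9% to 16.3%). Over all untreated peaks this share was 8.56% (8.04% to 9.12%). It was 4.68% (4.09% to 5.35%) for untreated peaks with moved borders, 6.18% for untreated-only and 7.98% for treated-only peaks. In 146 cases both neighbors were members. The plus-strand member lay to the right of the minus-strand member in 143 of these pairs, 135 of them met at 1 border, and in 113 both lay in promoters. The examples that follow were chosen after their values were seen. TOP1, a topoisomerase that relieves supercoils around polymerase, had a minus-strand member at chr20:39656835-39657334 that met a plus-strand member at chr20:39657335-39657834. SRSF1, a splicing factor, had members at chr17:56084253-56085002 on the minus and chr17:56085003-56085502 on the plus strand. The same arrangement was seen at DDX27, an RNA helicase, where chr20:47835335-47835834 on the minus met chr20:47835835-47836334 on the plus strand, and between NUP88, a nuclear pore protein, and RPAIN, at chr17:5322751-5323250 and chr17:5323251-5323750.

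Members were rich in G and C. Their median GC content was 59.4% (quartiles 52.8% and 65.4%), against 54.8% for untreated peaks with moved borders, 53.4% for untreated-only and 58.4% for treated-only peaks. Among promoter peaks of 500 bp the medians were close together, 61.6% for identical and 63.0% for moved untreated peaks, whereas outside promoters peaks of that width had 59.4% and 55.0%. The ratio of observed to expected CpG was 0.734 in members and 0.470 in untreated peaks with moved borders. Among promoter peaks of 500 bp it was 0.785 and 0.786, and outside promoters at that width 0.679 and 0.420. It was 0.779 in members at promoters against 0.323 in intergenic members. GC skew is the excess of G over C on the peak strand relative to all G and C. Its median in members was -0.0109, so the median member held slightly fewer G than C on its own strand. The median was 0 over all untreated and -0.0132 over all treated peaks. It was -0.00303 for untreated peaks with moved borders, 0.0179 for untreated-only and -0.0211 for treated-only peaks. A G-quadruplex motif, 4 runs of at least 3 G with 1 to 7 bases of any kind between them, occurred on the peak strand of 19.7% of members (18.4% to 21.1%) and of 20.1% of untreated peaks with moved borders (18.9% to 21.3%), with overlapping intervals, beside 18.2% of all untreated peaks (17.5% to 19.0%). It occurred on the other strand of 26.8% of members, 25.8% of untreated peaks with moved borders and 23.6% of all untreated peaks. Among the stretches shown above, those at RPS24 and near HES4 hold this motif. The match is a description of letters and not of a folded structure.

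Protein-coding genes carried most identical R-loops. A member lay at 3105 coding genes, which is 43.2% of the 7194 with an untreated peak. At 1839 of the 6090 coding genes with a peak in both lists (30.2%) every peak was a member. For 1623 of those genes that was 1 peak. These are shares of genes, while among peaks 32.2% of all untreated ones and 43.2% of those shared on the same strand were identical. Of all members, 81.3% touched a coding gene and 28.7% a long noncoding RNA gene. Of all 10231 untreated peaks, 7502 touched a coding gene and 2596 a long noncoding RNA gene. No coding gene was touched by 26.7% of all untreated peaks and 18.7% of members. The identical share of untreated peaks was 35.7% at coding genes and 36.4% at long noncoding RNA genes, and it was 18.0% (16.2% to 19.8%) where no gene was touched. At small nuclear RNA genes 34 of 58 untreated peaks were identical, or 58.6% (45.8% to 70.4%), at small nucleolar RNA genes 24 of 47 (51.1%, 37.2% to 64.7%), and at pseudogenes 109 of 384 (28.4%, 24.1% to 33.1%).

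The small nuclear RNA genes, most of which serve the spliceosome and, apart from U6, are transcribed by RNA polymerase II, had members that ran far past the gene. On the strand of the gene, 44 untreated peaks overlapped 45 of these genes, and 28 of the 44 were identical (63.6%, 48.9% to 76.2%). For U1 it was 21 of 27 (77.8%, 59.2% to 89.4%), and the other 6 had moved borders. The U1 members were 750 to 2250 bp wide, with a median of 1500 bp, and extended 586 to 2009 bp past the annotated end, with a median of 1152 bp. The run past the end was not particular to the members, since the U1 peaks with moved borders passed it by a median of 1086 bp. Over all small nuclear RNA genes the medians were 1131 bp for members and 1234 bp for the other peaks. The U1 members began a median of 142 bp before the gene start. RNVU1-13 had the longest run past the end of a U1 gene, 2009 bp, and RNU1-92P the shortest, 586 bp. At RNU1-4, the first sequence shown, the member lay at chr1:17066897-17068896 and passed the gene end by 1722 bp.

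Other small nuclear RNA families had fewer members. For U2, 2 of 3 same-strand peaks were identical, at RNU2-63P and RNU2-59P. For U5, 3 of 7 same-strand peaks were identical, at RNU5E-1, RNU5E-6P and RNU5A-8P. For U6, it was 1 of 4, at RNU6-2, where a 500-bp member reached 467 bp past the end. RNU4-1 and RNU4-2, which encode the U4 RNA, shared a 3000-bp member at chr12:120728296-120731295. Opposite-strand members lay upstream of RNU1-3, RNVU1-6, RNVU1-18, RNU7-27P and RNU6-1276P, each 500 bp wide, and of RNU1-117P, 750 bp wide.

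**Figure D4:**
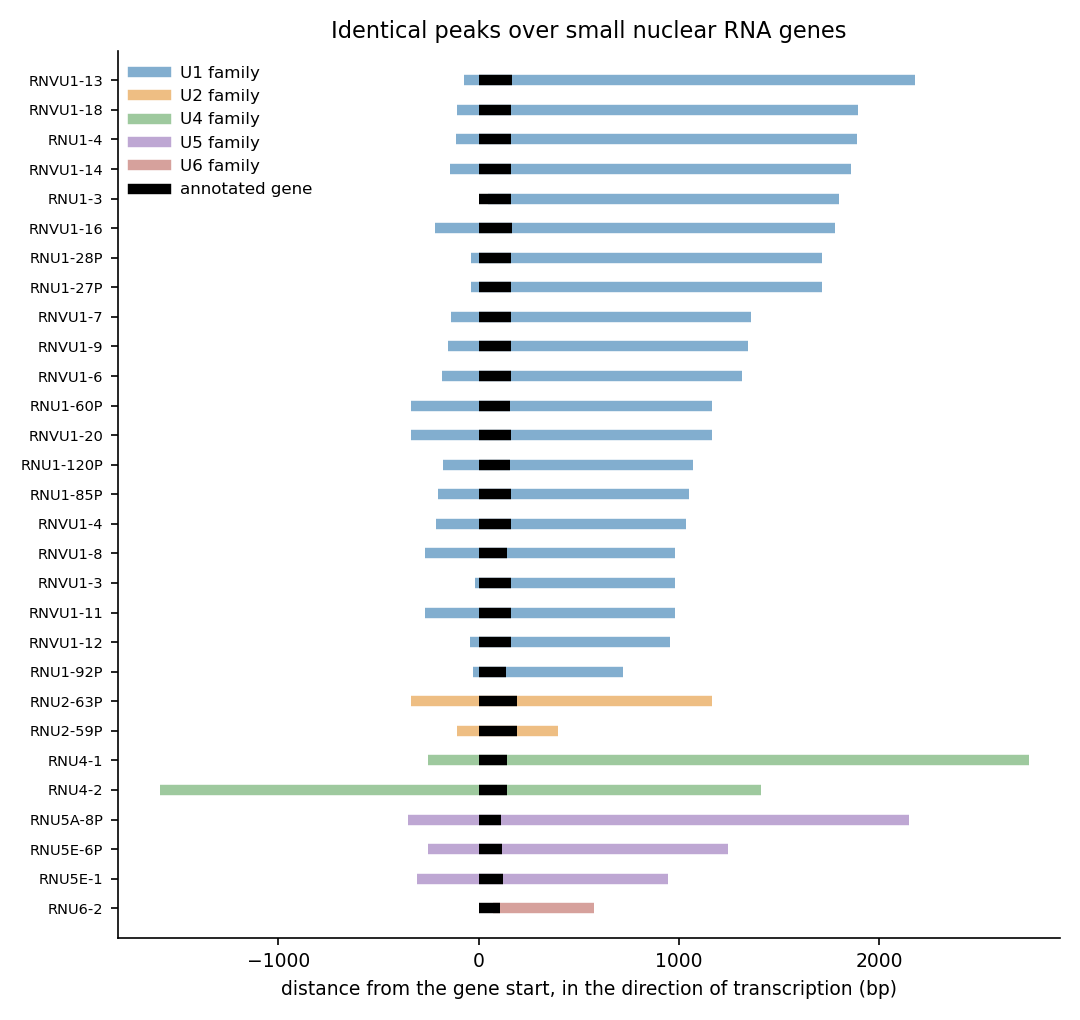
Same-strand identical peaks (colored bars, by family) over small nuclear RNA genes (black), aligned at the gene start, with distance in bp in the direction of transcription. The bars of the U1 family end 586 to 2009 bp past the annotated gene.

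Of the 21 U1 genes, 5 counting RNU1-4 itself have its exact sequence, 10 hold the 9-base element, and the median number of edits to RNU1-4 was 15. The member at RNU1-3, 1 of these 10, began inside the gene and did not reach its element. The element ACTTACCTG occurred on the peak strand of 0.455% of members and 0.469% of all untreated peaks, and on either strand of 0.698% and 0.772%. As 17 of the 21 genes lie on chromosome 1 in repeated sequence, reads could have been split among copies, and the part of this in the equal borders was not tested.

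The same limit holds for a tandem array on chromosome 1, in a region known for repeated transfer RNA genes. The gene record there, ENSG00000283360 at chr1:161373199-161440313, had the most members of any gene, 10 of 13 untreated and 15 treated peaks, 5 on either strand. The members are 500 to 750 bp wide and recur in steps, and 85.7% to 100% of the 31-base words of each untreated peak recur in another peak of the array on its strand. On the unplaced sequence GL000220, which holds ribosomal RNA genes, 9 of 17 untreated peaks were identical (52.9%, 31% to 73.8%), an interval that includes the 32.2% over all untreated peaks.

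The widest identical peak spanned 5500 bp at chr16:2200001-2205500 on the minus strand, over SNHG19, a host gene of small nucleolar RNAs, and SNORD60, opposite RAB26 and TRAF7. RPS24, a protein of the small ribosomal subunit, had a member of 3750 bp inside the gene, at chr10:79801149-79804898. SNHG16 had one of 3500 bp at chr17:74561253-74564752. An intergenic member of the same width, at chr6:133139082-133142581 on the plus strand, began 379 bp past the end of RPS12. These 4 members lay at or just past a small nucleolar RNA host gene or a ribosomal protein gene.

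Members of 3250 bp lay at GFER and TBL3, at chr16:2030251-2033500, and at MATR3, a nuclear matrix protein, at chr5:138621522-138624771, opposite SIL1. Members of 3000 bp were found at the histone genes H3C13 and H2BC18, at chr1:149782580-149785579, at the end of the long noncoding RNA gene ENSG00000272512, at chr1:929866-932865, where the peak began 1477 bp past the end of HES4 on the same strand, at RRP7A, a ribosome biogenesis factor, at chr22:42904261-42907260, and 483 bp past the end of ZNF282, at chr7:148923812-148926811. Several members were 2750 bp wide, and the first of these by position, at chr1:71518924-71521673, began 7301 bp past the end of ZRANB2.

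Several genes had more than 1 member. The clone-named records ENSG00000291336 and ENSG00000291338, which span a histone gene cluster on chromosome 6, held 9 of 22 and 7 of 18 untreated peaks, most of them at other annotated genes as well. MALAT1, an abundant nuclear noncoding RNA, had 3 peaks in each list, and all 3 were identical, at chr11:65266226-65266975, chr11:65267726-65268475 and chr11:65274226-65275975. All were on the strand of MALAT1, opposite its antisense transcript TALAM1. HOMEZ, a homeobox gene, likewise had 3 of 3, of 500 to 1250 bp on its own strand. RPAIN, a carrier of replication protein A, had 3 of 3, the 2 at the shared promoter with NUP88 and 1 at its far end. The CROCC record held 4 members among 8 untreated peaks, and 1 of the 4 is the peak over RNU1-4. NDE1, a mitotic spindle gene, had 3 of 3 untreated and 4 treated peaks, RNF103-CHMP3 3 of 4, and PIN4 3 of 5, of which the 2000-bp peak on the opposite strand covers RPS4X.

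Gene groups were compared by the share of the untreated peaks at their genes that were identical, beside 32.2% of all untreated peaks and 43.9% of those in promoters. In 5 of 26 groups the interval lay above 32.2%. Core spliceosome proteins had 24 of 41 (58.5%, 43.4% to 72.2%), replication-dependent histones 23 of 42 (54.8%, 39.9% to 68.8%), CCN, CDK and CDC genes 33 of 63 (52.4%, 40.3% to 64.2%), heat shock proteins 26 of 57 (45.6%, 33.4% to 58.4%), and cytosolic ribosomal proteins 51 of 112 (45.5%, 36.6% to 54.8%). For promoter peaks alone the shares of these groups were 65.5% (47.3% to 80.1%), 64% (44.5% to 79.8%), 60% (45.5% to 73%), 53.2% (39.2% to 66.7%) and 57.4% (45.5% to 68.4%), so that the interval of the heat shock proteins includes 43.9% while those of the other 4 lay just above it. Other groups had promoter shares in the same range, with intervals that include 43.9%, among them mitochondrial ribosomal proteins with 19 of 32 (59.4%, 42.3% to 74.5%) and actin and tubulin genes with 6 of 10 (60%, 31.3% to 83.2%). Of all untreated peaks at protein-coding genes 35.7% were identical (34.6% to 36.8%), and the interval of the heat shock proteins includes that share, while those of the other 4 groups lay above it. No group had an interval below 32.2%.

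**Figure D5:**
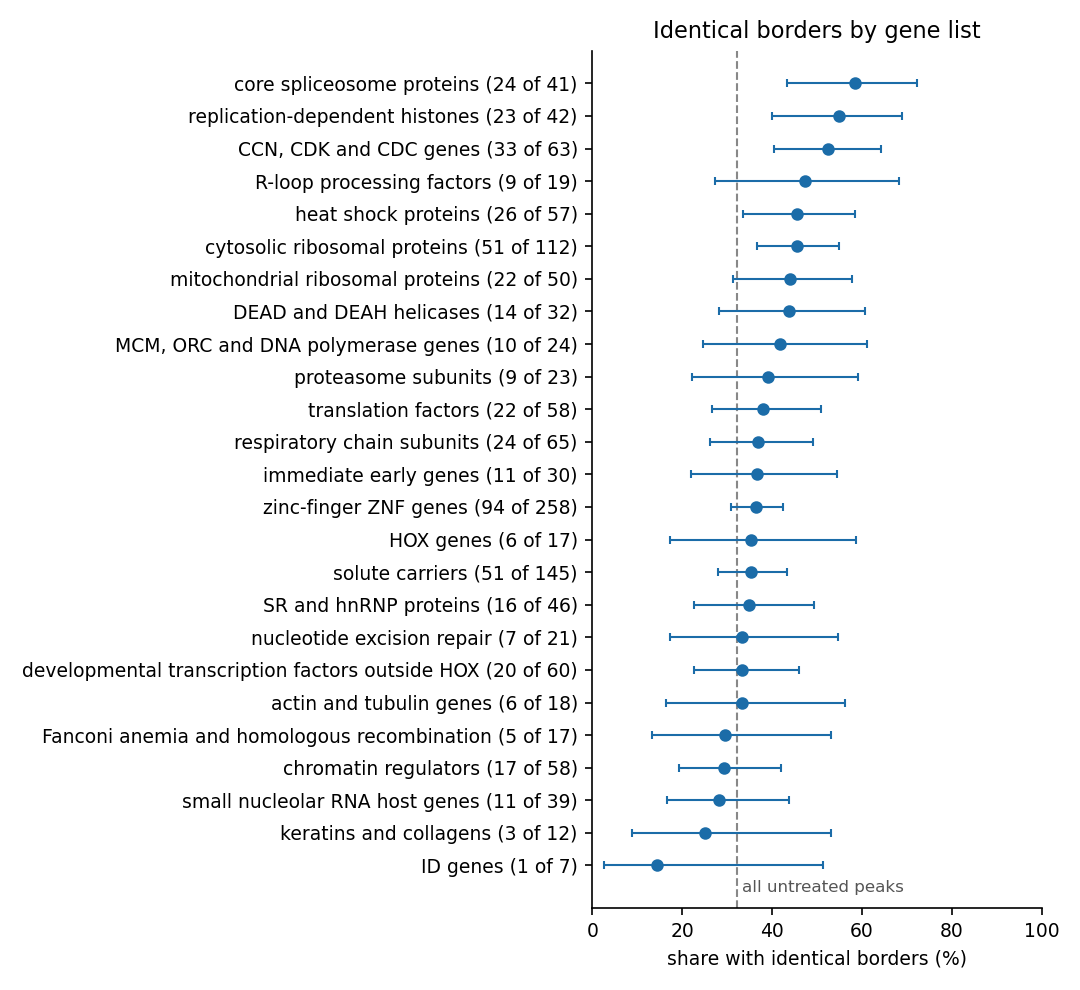
Share of the untreated peaks at the genes of each group that had identical borders (%), with 95% Wilson intervals and the number of peaks, for groups with at least 5 peaks. The dashed line marks 32.2%, the share over all untreated peaks, and 5 groups have intervals above it, of which that of the heat shock proteins includes 35.7%, the share at protein-coding genes.

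Among the core spliceosome genes, members were found at 20 of the 29 with an untreated peak. The widest were at PRPF38B, with 2250 bp in a terminal region at chr1:109244708-109246957, SF3B3, a subunit of the branch-site recognition complex, with 1500 bp at chr16:70557548-70559047, PRPF40B with 1250 bp on the opposite strand, and SNRPB2, a protein of the U2 particle, with 1250 bp in a terminal region. The SR and hnRNP proteins, which steer splice site choice, had 16 of 46 (34.8%). Their widest members were 2500 bp in SRSF3 at chr6:36561751-36564250 and 2000 bp in HNRNPA2B1 at chr7:26226751-26228750, followed by HNRNPA1 and SRSF2 with 1500 bp each.

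The histone members were wide, with a median of 1250 bp. H1-2, a linker histone, had a member of 2000 bp with its midpoint in a terminal region, at chr6:26055001-26057000, and H4C16 one of 2000 bp at chr12:14922251-14924250. H3C15 shared a 1750-bp member on its strand with H4C15 on the other. Histone genes also include close copies of each other, so that reads of their coding parts could have been split.

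In the CCN, CDK and CDC group, 27 of 33 members lay in promoters, beside 45 of all 63 untreated peaks of the group. Of all members 68.1% did. CDC37, a co-chaperone of kinases, had 1750 bp at chr19:10526095-10527844, and CDC25B, a phosphatase that activates cyclin-dependent kinases, had 1250 bp at chr20:3776501-3777750. CDK1, the kinase of mitotic entry, had 1250 bp at chr10:62537899-62539148, and CDK13 1250 bp on the opposite strand. CCND1, the G1 cyclin whose intron is shown above, had 750 bp at chr11:69455726-69456475. Genes of DNA replication (MCM, ORC and polymerase genes) had 10 of 24 (41.7%), with the widest at PCNA, the sliding clamp, and POLH, a translesion polymerase, both 1000 bp.

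Of the heat shock genes, HSPA1A, an inducible HSP70, had 1750 bp over its coding sequence at chr6:31783501-31785250, and HSP90AB1 1500 bp at chr6:44214501-44216000. A 1250-bp member at chr2:198363492-198364741 lay at the promoter shared by HSPD1 and HSPE1, the mitochondrial chaperonin pair, on the strand of HSPD1.

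Members at ribosomal protein genes had a median width of 750 bp, and 48 of the 75 genes with an untreated peak had one. After RPS24, the widest were at RPL38 and RPSA with 2500 bp each and RPL35A with 2250 bp. The RPL38 member at chr17:72206503-72209002 and the RPL35A member at chr3:197683111-197685360 lay in terminal regions. Mitochondrial ribosomal proteins had 22 of 50 (44%), with members of 2750 bp at MRPS21 and, on the opposite strand, MRPS18B. Translation factors had 22 of 58 (37.9%), among them EIF1 with 2000 bp in a terminal region and 1250 bp at a promoter, and the elongation factor EEF2 with 1750 bp.

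Respiratory chain subunits had 24 of 65 (36.9%), proteasome subunits 9 of 23 (39.1%), solute carriers 51 of 145 (35.2%) and ZNF genes 94 of 258 (36.4%), all close to the share over all peaks. ATP5PB, of the ATP synthase stalk, had 2000 bp, PSMA4 1750 bp, the amino acid transporter SLC38A2 1750 bp in a terminal region, and ZNF34 and ZNF703 2500 bp each. The small nucleolar RNA host genes held the widest member of all, but 11 of 39 (28.2%, 16.5% to 43.8%) of their peaks were identical. SNHG1 had 2000 bp and GAS5 1250 bp.

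Transcription factor and chromatin groups were near the background as well. HOX genes had 6 of 17 (35.3%), with a 1500-bp member at HOXB3 and HOXB5. Other developmental transcription factors had 20 of 60 (33.3%), with SOX4, at 1500 bp, and FOXD1, GATA6 and TBX3, at 1250 bp each, the widest. Immediate early genes, which respond within minutes to stimuli, had 11 of 30 (36.7%), led by BTG1 with 1500 bp and ATF3 with 1000 bp. Chromatin regulators had 17 of 58 (29.3%), with 2000 bp at HDAC2, a histone deacetylase. ID genes, inhibitors of differentiation factors, had 1 of 7, the promoter peak of ID4 on the opposite strand. Keratins and collagens had 3 of 12, and actin and tubulin genes 6 of 18, with 1500 bp at TUBA1B. The olfactory receptors, 399 genes known from sensory neurons of the nose, had 2 untreated peaks, and 0 were identical (0% to 65.8%).

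The study concerns DNA lesions and R-loop removal, and those genes were listed too. R-loop processing factors had 9 of 19 (47.4%, 27.3% to 68.3%), with RNASEH2A, the catalytic subunit of RNase H2, at chr19:12919845-12921094, AQR, TOP1 and SRSF1 among them. DDX5, a DEAD-box helicase, had 2 members, 2000 bp at chr17:62492753-62494752 and 750 bp at chr17:62502003-62502752, among 4 untreated and 3 treated peaks. DEAD and DEAH helicases in all had 14 of 32 (43.8%, 28.2% to 60.7%), with 750 bp each at DDX18 and DDX20 and, on the opposite strand, at DDX19B. Nucleotide excision repair had 7 of 21 (33.3%), all of 500 bp, with ERCC4 and GTF2H3 on the strand of the gene and ERCC1 and GTF2H1 on the opposite strand. The ERCC1 peak is the one on the strand of FOSB, and on the strand of the gene the group had 3 of 13 (23.1%). The Fanconi anemia and homologous recombination genes had 5 of 17 (29.4%), with FANCB and FANCM at 750 bp. Of the genes shown or used in the study, KBTBD6, ENTPD5, CHERP, CLSPN and GAPDH had a peak in at least 1 list and no member, and DDX23 had no peak. ENTPD5, CHERP and CLSPN had 1 peak each, in the treated list alone. That of CLSPN, the paper's control for unchanged promoter R-loops, lay inside the gene at chr1:36192397-36193396. KBTBD6 had a 500-bp peak in each list, and the 2 met at 1 border without overlap. GAPDH differed by 250 bp at its 5′ border, with chr12:6643501-6645000 untreated and chr12:6643751-6645000 treated.

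By chromosome, the identical share of untreated peaks ran from 22.9% on chromosome 21 (24 of 105, 15.9% to 31.8%) to 38.0% on chromosome 14 (122 of 321, 32.9% to 43.4%), with chromosome Y, at 2 of 11 peaks, left aside. Chromosome 6, with the main histone gene cluster, had 225 of 626 (35.9%, 32.3% to 39.8%), and chromosome 16 had 126 of 456 (27.6%, 23.7% to 31.9%). The intervals of chromosomes 14 and 21, the extremes of those compared, do not overlap, and all but those of chromosomes 6, 14, 16 and 21 include 32.2%. Promoters held 54.8% of the untreated peaks on chromosome 14, 50.3% on chromosome 6, 44.3% on chromosome 16 and 38.1% on chromosome 21. Chromosome 15 had the highest promoter share, 58%, and an identical share of 32.7%. The part of promoter content in the identical shares was not tested.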

How the data were processed

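The analysis used 2 deposited peak lists, 1 for untreated and 1 for N2-heptynyl-dG-treated HEK293T cells. Per the study's methods, the authors used Trim Galore for trimming, Bowtie2 for alignment to hg19 and Picard against duplicates, and both replicates entered R-loop identification. Versions are not given in the sources used here. The deposited values are start and end positions in bp, without score, count or depth. Reads, inputs and signal were not analysed here.

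Peaks were matched by chromosome, start, end and strand. GENCODE release 44 mapped to GRCh37, the same assembly as hg19, gave feature classes at the midpoint. Windows were 1000 bp on the outer and 100 bp on the inner side of starts and ends. Finer classes followed the order coding exon, 5′ UTR, 3′ UTR, noncoding exon, intron. A peak was at a gene when it overlapped the gene or 1000 bp upstream. Peaks over 50% masked were left out of base composition, and contigs have no annotation. Matching, classes, composition and intervals were tested on simulated data. Python 3.11.15, numpy 2.4.6, pandas 2.3.3, pysam 0.24.0 and matplotlib 3.10.9 were used.

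The members and the 26 gene lists, made by symbol, were chosen with earlier results of these data known. Named were genes at the 12 widest members, the 8 genes with the most members (ties by symbol, clone-named records only where no other gene lay), up to 4 genes per list with the widest member, and genes the study shows. Ties in width were taken by position among the widest members and by symbol within a list. Alternatives in peak width, chromosomes, border tolerance, strand, windows, transcripts, assignment and motif loops were tried.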

Additional observations from a re-analysis of the deposited data

How the results depend on the processing

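With borders allowed to differ by 250 bp, 6011 untreated peaks were matched in place of 3296. Among these the promoter, terminal, gene body and intergenic shares were 60.0%, 9.90%, 18.6% and 11.5%, the median GC content was 58.4%, and the median width was 750 bp in place of 500 bp. With peaks of at least 750 bp, 1591 were identical, the shares were 56.7%, 13.1%, 17.8% and 12.4%, the share on the strand of the gene was 72.3% in place of 69.6% (any gene type), the median GC content was 57.3%, and 23.5% held a G-quadruplex motif. With windows of 2000 bp on either side of starts and ends, the shares were 83.0%, 9.19%, 2.94% and 4.82%. With any overlap in place of the midpoint, they were 79.9%, 9.10%, 5.34% and 5.67%. With protein-coding genes only, the promoter, terminal and intergenic shares were 60.2%, 6.19% and 17.4%, and the share on the strand of the gene was 66.5%. Motif loops of up to 12 bases gave 33.2%. The promoter was the most frequent class under each of these. Chromosomes 1 to 22 and X alone moved none of the values tried beyond its interval, and ignoring strand, tried for the number of identical peaks alone, left it at 3296. Requiring the strand of the gene left 25 of 26 gene list shares within their intervals, the exception being ID genes, with 0% of same-strand peaks. No paired analysis was possible because there is 1 list for either condition and nothing here rests on a test across samples, and for the same reason no replicate could be left out. Depth is unknown, so borders set by few reads cannot be told from borders set by many.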
